A study of Homo sapiens with 4 samples.

Results

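Open chromatin regions at the short-arm ends of chromosomes 11, 16 and 19 were examined in A375, a human melanoma line long kept in culture. The regions were taken by position: every listed region on these 3 chromosomes whose end lay at or below 5000000 bp, in hg38, the build that the submitters' processing notes name. This gave 669 of the 125986 regions in the authors' deposited table, with 203 at the 11p end, 248 at the 16p end and 218 at the 19p end. The remaining 11254 regions of the same chromosomes served for comparison. Per the labels, one group of cultures was given octanoate at 1 mM, which is a fatty acid of medium chain length, and the other the vehicle isopropanol, both for 48 h, and each group had 2 libraries. The assay was ATAC-seq: a transposase, Tn5, cuts DNA that is not packed away and tags the cut ends for sequencing. The labels do not say whether the libraries came from separate cultures, so each p-value measures only the spread between these libraries, which may be technical.

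The 3 ends were picked because, in an earlier reading of the same table, most chromosome ends had higher fold changes than the rest of their chromosome and these did not. Their fold changes are therefore a description, and no test of them is given. The label fits the ends unequally. Among the 41 chromosome ends with at least 50 regions, the difference between the median log2 fold change of the end and that of the rest of its chromosome was lowest at 19p, second lowest at 16p and seventh lowest at 11p, from the authors' deposited table. The ends 17q, 17p, 21q and 20p lay below 11p in this order. The 11p end differed from the rest of chromosome 11 by only -0.017 on the log2 scale, from the authors' deposited table.

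Chromosome ends in the human genome often hold many short genes and DNA rich in G and C. Band 11p15 carries a large imprinted domain, in which genes such as IGF2, KCNQ1 and CDKN1C are expressed from 1 parental copy, and, next to it, clusters of olfactory receptor genes, best known for their role in the nose. Band 16p13 holds the alpha globin cluster and the tumour suppressor TSC2, and 19p13 holds STK11, GNA11 and MAP2K2, which act in growth signalling. Open regions at gene starts are usually open in many cell types, while distal regions differ more between cell types.

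The ends were dense in genes. Per Mb, the 11p, 16p and 19p ends held 26.2, 39.2 and 40.2 protein-coding genes of the RefSeq gene table (GRCh38.p14), against 8.99, 7.72 and 23.3 in the rest of the same chromosomes. The 16p end held 23.0% of the protein-coding genes of chromosome 16 in 5.54% of its length, measured to the last listed region. Open regions did not follow genes in proportion: the 11p end held 10.1% of the genes of chromosome 11 and 3.12% of its regions.

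Stretches at gene starts are shown to give the base composition there. Shown for each end are the highest and lowest fold change among regions that passed the authors' filter and hold a whole 250-base window. Most of each window lies upstream of the gene start and the rest just past it. It is called the upstream window below. The sequences are from RefSeq (GRCh38.p14), 5′ to 3′ on the strand of the gene, with each CG dinucleotide in capitals. At 11p these are POLR2L (chr11:842530-842779, minus strand), a small subunit shared by the RNA polymerases, and TRIM21 (chr11:4393703-4393952, minus strand), a ubiquitin ligase that binds antibodies inside cells. At 16p they are ANTKMT (chr16:720896-721145, plus strand), a mitochondrial lysine methyltransferase, and UBALD1 (chr16:4614889-4615138, minus strand). At 19p they are PTBP1 (chr19:797202-797451, plus strand), a splicing regulator, and MPND (chr19:4343312-4343561, plus strand). The first of each pair is the lower.
POLR2L: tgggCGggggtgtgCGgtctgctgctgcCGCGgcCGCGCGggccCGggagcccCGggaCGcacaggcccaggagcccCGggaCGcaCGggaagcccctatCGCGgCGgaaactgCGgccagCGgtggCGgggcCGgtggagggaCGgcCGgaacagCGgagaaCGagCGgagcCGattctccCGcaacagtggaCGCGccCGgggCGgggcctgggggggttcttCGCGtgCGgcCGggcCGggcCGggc
TRIM21: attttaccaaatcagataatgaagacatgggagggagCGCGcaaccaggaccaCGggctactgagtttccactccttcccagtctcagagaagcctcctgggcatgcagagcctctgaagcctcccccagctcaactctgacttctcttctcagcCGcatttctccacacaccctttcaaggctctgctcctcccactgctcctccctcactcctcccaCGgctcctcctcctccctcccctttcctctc
ANTKMT: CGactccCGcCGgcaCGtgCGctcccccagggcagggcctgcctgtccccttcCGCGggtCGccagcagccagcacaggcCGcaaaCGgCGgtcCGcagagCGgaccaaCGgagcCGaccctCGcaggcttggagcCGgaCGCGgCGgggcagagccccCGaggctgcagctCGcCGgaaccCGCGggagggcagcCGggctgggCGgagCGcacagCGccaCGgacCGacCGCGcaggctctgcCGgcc
UBALD1: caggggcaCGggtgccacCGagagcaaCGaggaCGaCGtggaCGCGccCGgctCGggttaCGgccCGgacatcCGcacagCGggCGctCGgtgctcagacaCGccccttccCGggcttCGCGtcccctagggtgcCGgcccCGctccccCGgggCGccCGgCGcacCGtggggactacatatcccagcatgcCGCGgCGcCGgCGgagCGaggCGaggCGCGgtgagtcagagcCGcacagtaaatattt
PTBP1: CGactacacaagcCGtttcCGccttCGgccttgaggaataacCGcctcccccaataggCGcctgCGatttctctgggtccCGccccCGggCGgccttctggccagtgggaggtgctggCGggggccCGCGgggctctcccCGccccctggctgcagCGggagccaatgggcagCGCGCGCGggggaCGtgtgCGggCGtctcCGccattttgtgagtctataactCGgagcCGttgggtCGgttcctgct
MPND: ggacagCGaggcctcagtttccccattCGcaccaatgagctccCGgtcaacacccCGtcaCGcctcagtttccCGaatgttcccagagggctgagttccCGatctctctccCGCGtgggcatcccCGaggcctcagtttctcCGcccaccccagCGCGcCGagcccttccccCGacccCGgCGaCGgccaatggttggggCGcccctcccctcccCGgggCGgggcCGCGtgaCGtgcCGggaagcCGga

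The windows held 37 CG dinucleotides at POLR2L, 34 at ANTKMT, 36 at UBALD1 and 26 at both PTBP1 and MPND, and the TRIM21 window held 5. The median of all 22199 protein-coding upstream windows in the RefSeq table was 16. Of these windows 254 lay whole inside a region of the 3 ends, and their median was 30 CG dinucleotides, with the same median of 30 at each end. In the 1766 windows inside regions of the rest of the 3 chromosomes it was 22. The share of G and C was 71.8% and 65.6% in these sets. The GGGCGG box of SP and KLF factors, which itself contains a CG, was present on either strand in 84.6% of windows at the ends, 74.2% in the rest of the chromosomes and 53.7% of all windows. The E-box CACGTG was present in 15.4%, 7.42% and 7.37% of the same 3 sets, and CCAAT in 46.9%, 38.7% and 32.7%. CCAAT was not more frequent at 11p, at 34.5% against 36.9% in the rest of chromosome 11. The TATAAA box was present in 2.36%, 3.28% and 9.0%, and at 19p in 5.88% against 3.07% in the rest of chromosome 19. Long-arm ends varied: the 46 windows in the last 5 Mb of 16q had a median of 33 CG dinucleotides and 95.7% held GGGCGG, the 101 windows of 19q had 22 and 73.3%, and the 10 of 11q had 27. These are matches of letters and not binding sites.

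The table used here has 0 columns for single libraries, so each region is given by its mean normalized read count over the 4 libraries and its log2 fold change of octanoate over vehicle with the authors' standard error. The authors adjusted p-values over 11185 regions with a mean of at least 63.8, called tested regions here, and 53 of the 669 regions at the ends passed this filter. Most values below therefore rest on weak regions: the median mean signal was 17.4 at the ends and the median standard error of the log2 fold change was 0.50, both from the authors' deposited table. The same medians were 14.0 and 0.57 in the rest of the 3 chromosomes, from the authors' deposited table. The depth of each library is unknown. Lineage genes were checked first: MITF, DCT and PAX3 had an open region within 1 kb of a listed start, MLANA and TYR had regions in the gene only, and PTPRC and ALB, genes of immune cells and hepatocytes, had none at the start, although 9 regions lay inside PTPRC. SOX10, PMEL, CD3E, CDH5 and PECAM1 were not analysed here.

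After octanoate, regions at the 3 ends had lower fold changes than the rest. The median log2 fold change was 0.084 at the ends, with quartiles of -0.12 and 0.32, against 0.21 in the rest of chromosomes 11, 16 and 19 and 0.23 over all nuclear regions, in the authors' deposited table. The difference from the rest was -0.13. Of the 669 regions 413 had a value above 0, or 61.7%, against 72.8% in the rest of the chromosomes, in the authors' deposited table. The 3 ends differed among themselves: the median was 0.18 at 11p, 0.078 at 16p and -0.029 at 19p, against 0.20, 0.20 and 0.26 in the rest of chromosomes 11, 16 and 19, in the authors' deposited table. The 19p end was the only 1 of the 3 with fewer than 50% of its regions above 0, at 46.8%, and no other of the 41 chromosome ends had a lower median.

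**Figure D1:**
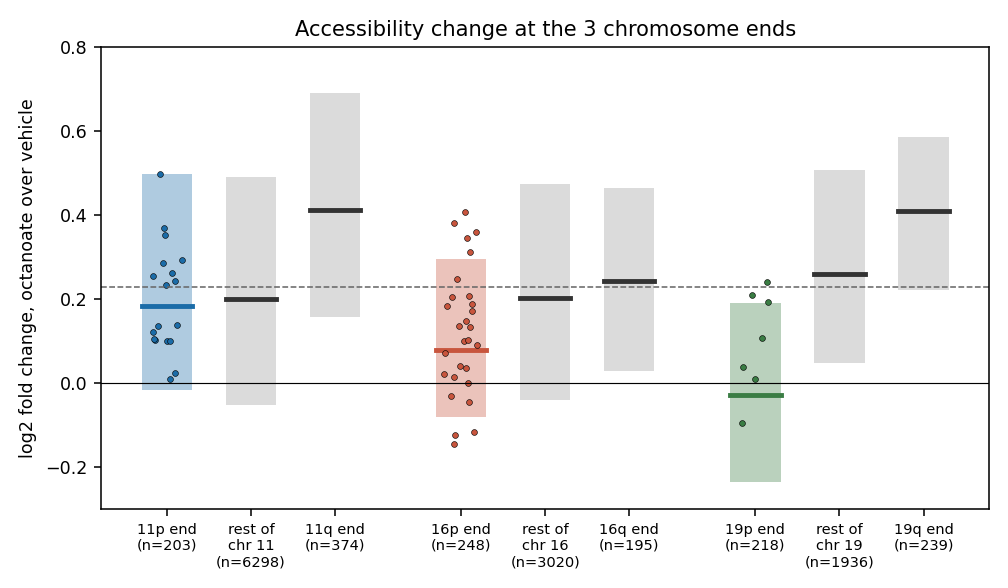
Log2 fold change of octanoate over vehicle at each short-arm end (colour), in the rest of its chromosome and at the long-arm end (grey). Boxes span the quartiles, heavy lines are medians, points are the tested regions of the short-arm ends, and the dashed line is the nuclear median of 0.23. The median of the 19p end lies below 0, while that of the 19q end is 0.41.

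No region at the 3 ends passed the threshold. In DESeq2 with Benjamini-Hochberg adjustment, 0 of the 53 regions reached an adjusted p under 0.05 in the authors' deposited table, against a background of 1.02% of all tested regions, and 0 reached 0.1, against 2.98%. The lowest adjusted p at the ends was 0.175. At an unadjusted p under 0.05, 2 of the 53 were higher and 0 were lower, where 14.8% of all tested regions were higher and 0.107% lower. After subtracting the median of all tested regions, 0 were higher and 0 lower at this level, against 3.16% and 1.01%. With untested regions included, 6 of the 669 were higher and 0 lower, against 3.58% and 0.179% of all nuclear regions. The smallest log2 fold change that passed anywhere in the authors' deposited table was 0.36, and 5 tested regions at the ends lay above it. Because the ends were chosen from this same comparison, nothing further is read from these counts.

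The long-arm ends of the same chromosomes showed other values. The median log2 fold change was 0.41 over 374 regions in the last 5 Mb of 11q, 0.24 over 195 regions of 16q and 0.41 over 239 regions of 19q, in the authors' deposited table. The 19q end was about as rich in gene starts as the 19p end, with 40.2% and 45.9% of regions within 1 kb of a listed protein-coding start. At gene starts alone the median was 0.37 at the 19q end and -0.041 at the 19p end, from the authors' deposited table. All 45 tested regions of the 19q end lay above 0.

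**Figure D2:**
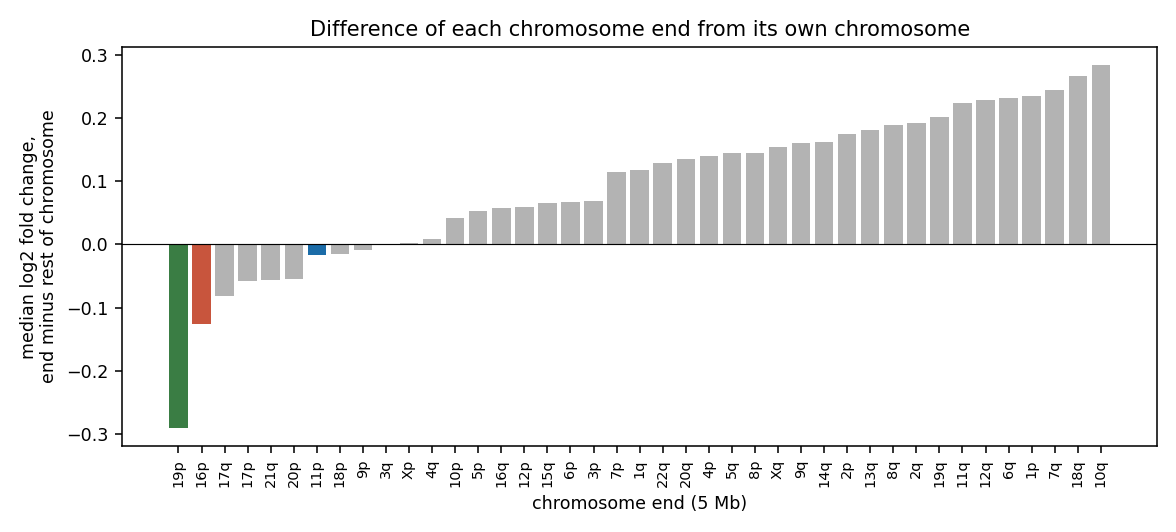
Median log2 fold change of each chromosome end (5 Mb) minus that of the rest of its chromosome, for the 41 ends with at least 50 regions, sorted. The 19p end (green) is lowest at -0.29 and 16p (red) follows at -0.13, while 11p (blue) is within 0.02 of its chromosome.

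The 19p end was lowest between 1 and 3 Mb from the tip. Its 1 Mb bins had medians of 0.027, -0.13, -0.099, 0.064 and 0.044 from the tip inward, from the authors' deposited table. Between 1 and 3 Mb 69 of 107 regions were below 0 and none was strong enough to be tested. Among the 2650 bins of 1 Mb in the nuclear genome with at least 20 regions, the bin from 1 to 2 Mb ranked 12 from the lowest and the bin from 2 to 3 Mb ranked 20, and 118 bins (4.45%) had a median below 0. Farther inward the medians were higher, and the bin from 9 to 10 Mb had 0.27 in the authors' deposited table.

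At the 16p end the outer bins were close to 0 and the bins from 5 to 10 Mb were higher. The first 3 Mb had medians of 0.048, 0.048 and 0.034, the next bins 0.11 and 0.16, and the bin just past the limit, from 5 to 6 Mb, 0.52, from the authors' deposited table. That bin held 27 regions with a median mean signal of 7.73 and 7.41% of them at gene starts, against 26.4 and 30.8% in the bin from 4 to 5 Mb. Farther inward low bins returned, with 0.027 from 17 to 18 Mb in the authors' deposited table.

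The 11p end was split. Its outermost 1 Mb, with 37.0% of 54 regions at gene starts, had a median of 0.098, and the 149 regions from 1 to 5 Mb, with 12.1% at gene starts, had 0.27, in the authors' deposited table. Without the outermost 1 Mb the 11p end lay 0.067 above the rest of chromosome 11, so its place among the low ends rests on that stretch, which was singled out after the values were seen.

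**Figure D3:**
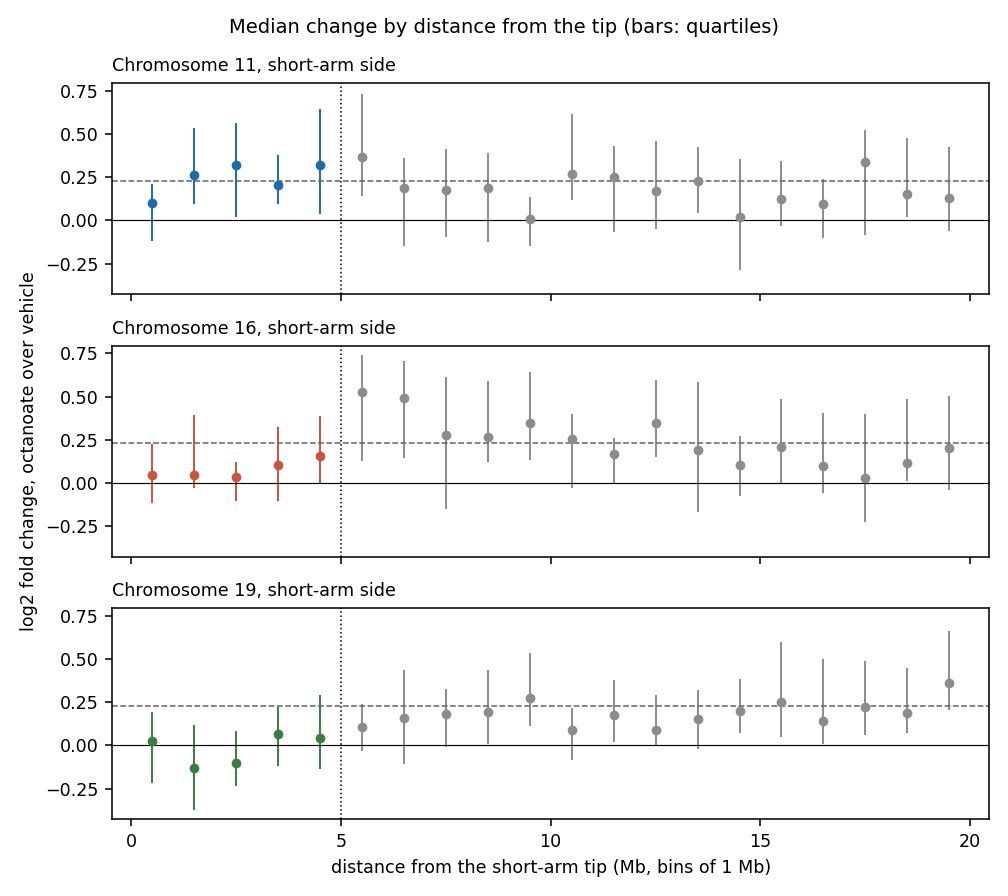
Median log2 fold change in bins of 1 Mb by distance from the short-arm tip, with bars from the lower to the upper quartile. Coloured bins lie inside the 5 Mb limit (dotted), grey bins outside, and the dashed line is the nuclear median of 0.23. On chromosome 19 the bins from 1 to 3 Mb lie below 0, and on chromosome 16 the median goes from 0.16 to 0.52 across the limit.

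At the limit itself the neighbours were weak regions or had similar values. On chromosome 11 the last region inside lay in MMP26, a matrix protease gene (4892084 to 4892576, log2 fold change -0.048, standard error 0.63), and the first outside in OR51L1, an olfactory receptor gene (5004451 to 5004827, 0.54, standard error 0.71), in the authors' deposited table. On chromosome 16 the last inside lay at the start of SEC14L5 (4957653 to 4958608) and the first outside at NAGPA (5033341 to 5034097), and the authors' deposited table gives 0.13 for both. Both on chromosome 19 lay in KDM4B, a histone demethylase gene, with 0.11 inside (4968511 to 4969400) and 0.18 outside (5036919 to 5037497) in the authors' deposited table.

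The 53 tested regions give the most precise values, and most lay at gene starts (69.8%). Their median log2 fold change was 0.14 against 0.18 for the 1179 tested regions in the rest of the 3 chromosomes and 0.19 over all tested regions, in the authors' deposited table. Only 7 of 218 regions at the 19p end were tested, or 3.21%, against 13.2% in the rest of chromosome 19.

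At 11p all 18 tested regions had values above 0, from 0.0095 to 0.50, in the authors' deposited table. The highest was the start of TRIM21 (chromosome 11, 4393099 to 4394191), where the authors' deposited table gives a mean of 71.9 and 0.50 ± 0.25 (log2 fold change and its standard error, DESeq2 adjusted p 0.322). Next came a region inside STIM1, the calcium sensor of the endoplasmic reticulum (3904194 to 3905943), with 0.37, and the start of TSSC4 in the imprinted domain (2399614 to 2400987), with 0.35, in the authors' deposited table. The fourth, with 0.29 in the authors' deposited table, lay at the start of the noncoding gene LINC02749, 45149 bp from SSU72L5 (4186875 to 4188068). The lowest was the region of POLR2L and the neighbouring start of TSPAN4 (842147 to 845082), with 0.0095, followed by the start of RRM1, which encodes the large subunit of ribonucleotide reductase (4094181 to 4096265), with 0.025, in the authors' deposited table. STIM1 appears on both sides: its start (3854684 to 3856409) had 0.10, and the start of NAP1L4, a histone chaperone gene (2991457 to 2993155), also had 0.10, in the authors' deposited table. The strongest region of all 3 ends, shared by the starts of NUP98, a nuclear pore gene, and PGAP2 (3797100 to 3798313, mean 200.7), had 0.11 with a standard error of 0.15 in the authors' deposited table. The second strongest at 11p, the start of the ubiquitin ligase gene TRIM68 (4607685 to 4608751, mean 144.6), had 0.26 in the authors' deposited table.

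At 16p the 28 tested regions ran from -0.15 to 0.41 in the authors' deposited table, and 23 lay above 0. The highest was the start of UBALD1 (chromosome 16, 4613917 to 4616942), where the authors' deposited table gives a mean of 174.5 and 0.41 ± 0.16 (DESeq2 unadjusted p 0.0110, adjusted p 0.175). Close by, the start of MGRN1, a ubiquitin ligase gene known for its effect on coat colour in mice (4624244 to 4625621), had 0.38 in the authors' deposited table. A region 2899 bp outside TFAP4, at the start of LINC01569 (4253385 to 4254287), had 0.36, and a region inside UBN1, a gene of the HIRA histone chaperone complex (4859238 to 4860277), had 0.35, in the authors' deposited table. The shared start of UBN1 and GLYR1 (4846618 to 4848624, mean 124.1) had 0.15 in the authors' deposited table. The lowest values belonged to the starts of ANTKMT (720007 to 721851, -0.15), SRRM2, which encodes a scaffold of nuclear speckles (2752054 to 2753350, -0.12), FLYWCH2 (2882161 to 2883818, -0.12) and the pair ANKS3 and DNAAF8 (4733890 to 4735328, -0.045), in the authors' deposited table. Their standard errors were 0.20 to 0.27, so none stood apart from 0.

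All 7 tested regions at 19p were gene starts. The highest were MPND (chromosome 19, 4342479 to 4343807, 0.24), HDGFL2, a chromatin reader gene (4471404 to 4472402, 0.21), and TPGS1, which encodes a subunit of a tubulin polyglutamylase (506588 to 508092, 0.19), in the authors' deposited table. KDM4B, above, was in the middle. The lowest were PTBP1 (796639 to 798024, -0.095), DPP9, a dipeptidyl peptidase gene (4723555 to 4724882, 0.0087), and FEM1A, which encodes a substrate receptor of ubiquitin ligases (4791064 to 4792074, 0.037), in the authors' deposited table. The standard errors were 0.23 to 0.26, wider than the gap between the highest and the median of these 7.

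**Figure D4:**
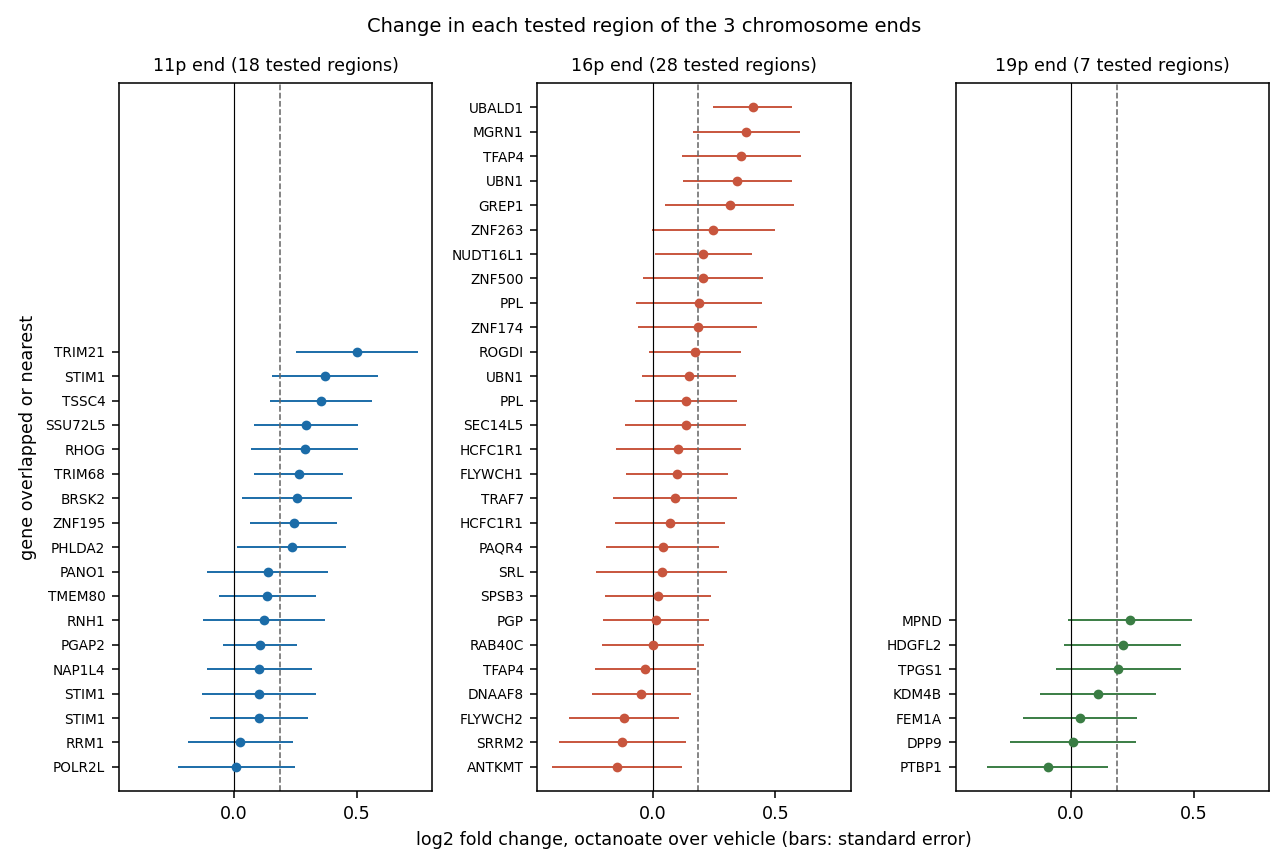
Log2 fold change of octanoate over vehicle for each of the 53 tested regions, with the authors' standard error as bars, labelled by the gene overlapped or nearest. The dashed line is the median of all tested regions, 0.19. Every 11p value lies above 0, and the bars of most regions span the dashed line.

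Gene lists chosen by location and function were described by their counts. None had a region past the threshold, and none had a tested region at an unadjusted p under 0.05. The median of all regions at the ends was 0.084, with 61.7% above 0, but the lists draw on the 3 ends unequally, so values by end are given too, each beside the median of the other regions of that end. None of these differences was tested. A region belongs to a gene here if it overlaps it, if the gene is the nearest, or if it lies within 1 kb of its start. IGF2, CDKN1C, CREBBP, SIRT3, SIRT6, SLC25A22 and ZNF263 each stand in 2 lists.

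In the imprinted domain of 11p15, the 14 genes with a region, of 16 listed, held 63 regions, of which 50 lay above 0 and whose median was 0.27, from the authors' deposited table. All lay at 11p between 2077056 and 3169961, where the share above 0 was 79.4%. The 86 other regions of 11p from 1 to 5 Mb also had a median of 0.27, with 79.1% above 0, from the authors' deposited table. They include regions inside INS-IGF2, within this domain, with -0.44 and 0.40, in the authors' deposited table. The median of all 140 other regions of 11p was 0.17, from the authors' deposited table. KCNQ1, a potassium channel gene whose span holds 1 of the imprinting centres of 11p15, had 18 regions assigned, of which 1 lay 14066 bp outside it. Of the 18 regions 14 lay above 0, and the median of the 18 was 0.43, from the authors' deposited table. A KCNQ1 region at 2732366 to 2733044 had 0.67 (standard error 0.32, mean 43.1), while the mean signal of this list was low, at a median mean of 12.7 per region, all from the authors' deposited table. IGF2, the growth factor gene, had no region in or at the gene. The 4 for which it was the nearest gene lay 51495, 39273, 35723 and 31290 bp away and had 0.80, 0.56, 0.80 and -1.63, each with a standard error above 0.6, in the authors' deposited table. CDKN1C, the cell cycle inhibitor gene of the domain, had 3 regions with 0.080, -0.23 and -0.11 in the authors' deposited table. Of the 3 CDKN1C regions the last 2 lay outside the gene, 2543 and 6241 bp away. INS and H19 had no region assigned.

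The mixed list of growth signalling and tumour genes had 36 regions, from 18 of 20 listed genes. Of these regions 19 lay above 0, and the median was 0.017 in the authors' deposited table. By end it was 0.12 at 11p (13 regions), 0.021 at 16p (13 regions) and -0.15 at 19p (10 regions), beside 0.19, 0.090 and -0.026 for the other regions, from the authors' deposited table. The start of HRAS, a RAS gene (chromosome 11, 534589 to 536135), had -0.12 with a standard error of 0.29 in the authors' deposited table. GNA11, a G protein gene mutated in some melanomas (chromosome 19, 3093879 to 3094561), had -0.27 with 0.36, and the start of MAP2K2, which encodes the kinase MEK2 (4123769 to 4124555), had -0.18 with 0.41, in the authors' deposited table. The shared start of TSC2 and NTHL1 (chromosome 16, 2047401 to 2048370) had 0.036 and the start of STK11 (chromosome 19, 1205376 to 1206017) 0.060 in the authors' deposited table. Each of these lay within 1 standard error of 0.

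The list named for translation, splicing and transcription machinery also takes in PSMD13, CDC34, OAZ1, RRM1 and NUP98, which have other roles. Most of its 11p regions belong to RRM1 and NUP98. The 27 regions of all 16 genes in the list had a median of -0.0018, with 13 above 0, in the authors' deposited table. Of these, 15 lay at 19p with a median of -0.061 beside -0.028 for the other regions there, 10 at 11p with 0.017 beside 0.20, and 2 at 16p with 0.23 beside 0.077, from the authors' deposited table. The start of EEF2, the translation elongation factor gene (chromosome 19, 3985186 to 3985734), had -0.44 with a standard error of 0.56 in the authors' deposited table. Mitochondrial genes had 21 regions with a median of 0.029 and 12 above 0, and chromatin genes 25 regions with 0.023 and 13 above 0, in the authors' deposited table. The chromatin regions were 19 at 19p, with a median of -0.16 beside -0.028, and 6 at 16p, with 0.17 beside 0.077, from the authors' deposited table. The mitochondrial regions had medians of 0.14 at 11p, 0.030 at 16p and -0.050 at 19p, beside 0.19, 0.079 and -0.029, from the authors' deposited table. The start of NDUFS7, a subunit gene of respiratory complex I (chromosome 19, 1383234 to 1384079), had the lowest value of the mitochondrial list, -0.80 with a standard error of 0.44 in the authors' deposited table.

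Lipid and sirtuin genes had 16 regions of 12 of 14 listed genes, with a median of 0.15 and 10 above 0, in the authors' deposited table. The list also takes in SLC25A22, a mitochondrial carrier gene that is neither, with 0.40 and 0.14 at 11p, in the authors' deposited table. The start of PNPLA2, which encodes the lipase that begins the breakdown of stored triglyceride, had 0.17, and the start of ECI1, an enzyme gene of fatty acid oxidation, had 0.29, with standard errors of 0.35 and 0.33, in the authors' deposited table. The starts of PLIN3, a lipid droplet coat gene, and SIRT3, shared with PSMD13, had 0.18 and -0.15, in the authors' deposited table. Their standard errors were 0.45 and 0.31. The lowest value of the list was at the start of SIRT6, -0.49 with a standard error of 0.64, in the authors' deposited table. The highest was at the start of CREB3L3, 1.13 with a standard error of 0.87, in the authors' deposited table. By end the list's median was 0.15 at 11p (4 regions), 0.18 at 16p (3 regions) and 0.060 at 19p (9 regions), beside 0.19, 0.078 and -0.031 for the other regions, from the authors' deposited table. PLIN4 and PLIN5 had no region assigned.

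Globin and mucin genes, the olfactory receptor genes of 11p and CFD, the gene of complement factor D, held 20 regions. These were assigned by overlap or as the nearest gene, and 13 lay outside the gene. Above 0 were 18 of the 20, and the median of the 20 was 0.45 at a median mean signal of 7.16, from the authors' deposited table. The listed granule protease genes AZU1, ELANE and PRTN3 had no region, and neither had HBA1, HBA2, HBM and MUC6, while olfactory receptor and zinc finger genes entered their lists only where they had one. Of the 20 regions 16 lay at 11p beyond 1 Mb, with a median of 0.44, where that stretch as a whole had 0.27 and the other regions of 11p 0.17, from the authors' deposited table. The 2 regions at 16p had 0.45 beside 0.077, and the 2 at 19p had 0.89 beside -0.034, from the authors' deposited table. Olfactory receptor genes of 16p were not in the list: OR1F1 had 5 regions with a median of 0.14, 3 of them above 0, and OR2C1 had 1 with 0.81, from the authors' deposited table. Innate immune genes held 10 regions, 5 above 0, and zinc finger genes 34, 19 above 0, and the medians were -0.045 and 0.076 in the authors' deposited table. Outside the genes lay 5 of the innate immune and 17 of the zinc finger regions. The innate immune regions were 8 at 11p, with -0.12 beside 0.21, and 2 at 19p, with 0.54 beside -0.034, from the authors' deposited table. All 8 lay in the outermost 1 Mb of 11p, where the median of all regions was 0.098. The zinc finger regions had 0.17, 0.0068 and -0.16 at 11p, 16p and 19p, beside 0.19, 0.080 and -0.028, from the authors' deposited table.

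A larger share of regions lay at gene starts at the ends, while signal strength differed by end. The median mean signal over all regions was 13.5, 24.0 and 14.6 at 11p, 16p and 19p, in the authors' deposited table. In the rest of each chromosome that signal was 12.7, 14.0 and 19.8. The share of regions within 1 kb of a protein-coding start in the RefSeq table was 35.6% at the ends and 14.5% in the rest of the chromosomes. By end it was 18.7%, 40.3% and 45.9% at 11p, 16p and 19p, against 9.37%, 11.6% and 35.5%. The table lists starts for 63.4%, 73.0% and 67.2% of genes at these ends and for 74.4%, 71.1% and 84.0% in the rest, so the true shares are higher. Counted within 1 kb of either end of a gene, for which all genes are listed, the shares were 45.4% and 18.2%. The median width was 507 bp at 11p against 439 bp in the rest of its chromosome and 596 bp against 456 bp at 16p, but 507 bp against 527 bp at 19p.

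Starts and other regions were therefore compared apart. At gene starts the median log2 fold change was 0.11, 0.044 and -0.041 at 11p, 16p and 19p, against 0.11, 0.10 and 0.18 in the rest of each chromosome, in the authors' deposited table. Away from listed starts it was 0.23, 0.13 and -0.028, against 0.22, 0.23 and 0.34, in the authors' deposited table. The 19p end thus lay below its chromosome in both classes, with differences of -0.22 at starts and -0.36 elsewhere. The 16p end did so with -0.061 and -0.10, and the 11p end in neither. In the rest of these chromosomes starts lay below other regions by more than they did at the 19p end.

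**Figure D5:**
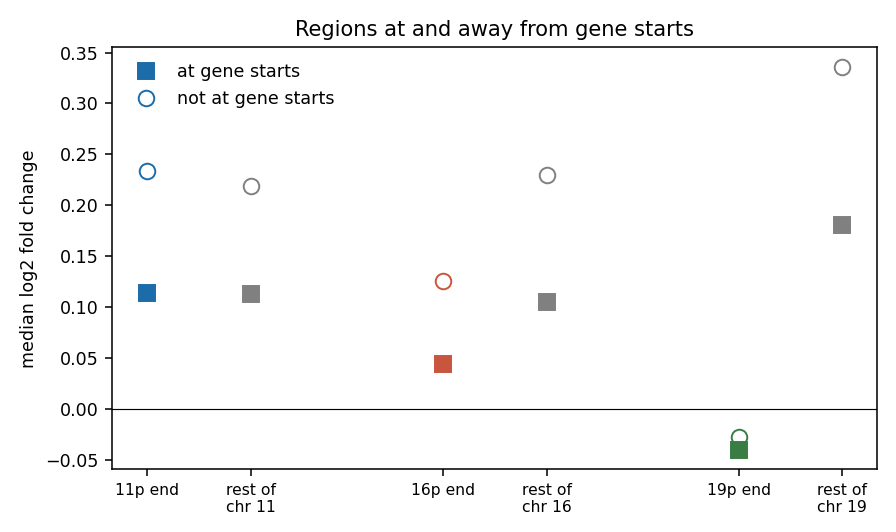
Median log2 fold change of regions within 1 kb of a listed protein-coding start (squares) and of other regions (circles), at each short-arm end (colour) and in the rest of its chromosome (grey). At 19p both medians lie below 0, and at 11p both lie within 0.02 of the rest of the chromosome.

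Gene starts at the ends had lower mean signal. Regions at starts had a median mean signal of 33.2 at the ends and 54.5 in the rest of the chromosomes, and the values were 41.7 against 69.0 at 11p, 40.3 against 60.2 at 16p and 23.8 against 42.0 at 19p, in the authors' deposited table. Regions away from starts had similar signal, 11.8 at the ends and 11.9 in the rest. Regions of the 3 chromosomes were then split by mean signal into 4 classes of equal size. From weakest to strongest the 19p end differed from the rest of chromosome 19 by -0.49, -0.39, -0.20 and -0.25 in the median log2 fold change of the authors' deposited table, and so was lower in each. The 16p end was lower in each too, with differences of -0.25, -0.020, -0.16 and -0.070. The 11p differences ran from -0.024 to 0.0092.

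Fold changes were also set beside base composition. Regions whose upstream window held at least 30 CG dinucleotides had a median log2 fold change of 0.0088 at the ends (98 regions) and 0.11 in the rest of the chromosomes (251 regions), and those with fewer than 22 had 0.11 (33 regions) and 0.15 (669 regions), in the authors' deposited table. At 19p the values were -0.049, -0.0018 and 0.056 in the classes of at least 30, 22 to 29 and fewer than 22, against 0.12, 0.16 and 0.24 in the rest of chromosome 19, in the authors' deposited table. The 19p end was thus lower in each of these classes. The 11p end was not. Its medians were 0.14 for 22 to 29 (7 regions) and 0.14 for fewer than 22 (9 regions). These lay above the 0.12 and 0.11 of the rest of chromosome 11, in the authors' deposited table. For at least 30 (16 regions) the 11p median was lower, 0.090 against 0.11, in the authors' deposited table. At 16p the lowest class had 0.10 in both, the middle class 0.083 against 0.12, and the highest 0.014 against 0.10, in the authors' deposited table. Across the 191 regions at the ends with a window, Spearman's rho of CG count and log2 fold change was -0.16, and in the rest of the chromosomes it was -0.099 over 1342 regions. This is across regions of the same libraries, which are not replicates. Only upstream windows were used, and the part of signal, gene starts or base composition in the lower fold changes was not tested.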

How the data were processed

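Regions and statistics were taken as deposited by the authors in a single table of the octanoate against vehicle comparison (2 libraries each). Its columns, per the file headers, are a mean signal (normalized read count over the 4 libraries, deposited by the authors with unstated scaling), a log2 fold change with standard error, a score (the deposited Wald statistic), and a p-value with its adjusted p-value, from DESeq2. The submitters' processing notes also list Trim Galore, cutadapt, FastQC, Bowtie2, Picard, MACS2, featureCounts, bedtools 2.29.1 and hg38, without roles; a read shift for Tn5 is not given in the sources used here.

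Deposited adjusted p-values equalled Benjamini-Hochberg over 11185 regions with a mean of at least 63.8. The other regions, listed as 1, were treated as not tested. The table's starts count from 0 and are printed from 1. Positions were joined to RefSeq genes and promoter windows of GRCh38.p14 in Python 3.11.15 with pandas 2.3.3, and the adjustment, gene assignment, start distances and median differences were tested on simulated data. A region took the gene it overlapped (the shortest) or the nearest. Named regions were, per end, the 4 highest and 4 lowest tested with 1 region per gene and direction, the 2 strongest, and those beside the limit. Members, lists and rules were chosen with earlier results of these data known. Orientation of windows was checked on 2750 overlapping pairs.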

Additional observations from a re-analysis of the deposited data

How the results depend on the processing

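No paired analysis was possible because single libraries have no column of their own in the deposited table, and for the same reason no library was left out, no other scaling was run and depth is unknown. A difference was held to have moved when it left the 95% order-statistic interval of the medians. That interval treats regions as independent draws, which they are not, so it is a yardstick and not a test. The difference of -0.13 for all 3 ends stayed below 0 in all 15 alternatives. It was -0.18 with a 2.5 Mb limit, -0.072 with 10 Mb, -0.041 in tested regions, -0.099 without gene starts, -0.19 without 11p and -0.077 without 19p, and, added after seeing the data, -0.078 over 1 kb from gene ends and -0.095 by summed signal. The 11p difference of -0.017 changed sign in 6 of 12: 0.019 in tested regions, 0.0019 at gene starts, 0.015 without them, and, added later, 0.016 over 1 kb from gene ends, 0.067 without its outermost 1 Mb and 0.024 by summed signal; its sign is thus not fixed by these data. The 16p difference of -0.13 kept its sign: -0.17 at 2.5 Mb, -0.034 at 10 Mb, -0.029 in tested regions, -0.061 at gene starts, and, added later, -0.054 over 1 kb from gene ends and -0.072 by summed signal. The 19p difference of -0.29 kept its sign: -0.21 at 10 Mb, -0.17 in tested regions, -0.21 at or above the median mean signal, -0.22 at gene starts, -0.36 without them and, added later, -0.23 within 1 kb of either gene end. The causes were not tested. The count of 0 past the threshold was 0 in all alternatives run. The 2 regions higher at an unadjusted p under 0.05 became 0 after centring on the tested median, 0 at 2.5 Mb and 5 at 10 Mb. The excess of gene starts, 21.1 percentage points, was 24.9 within 3 kb, 13.1 in tested regions and, added later, 27.3 within either gene end.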

Other observations

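Regions too weak for the authors' test added 4 at an unadjusted p under 0.05, all with positive values. The smallest p belonged to a region inside OSBPL5, a lipid transfer protein gene of the imprinted domain (chromosome 11, 3124463 to 3124890), for which the authors' deposited table gives 1.66 ± 0.52 (log2 fold change and standard error) at a mean of 17.5. The others lay in KCNQ1, above, in PGAP2 (3803667 to 3804567, 0.80) and 6588 bp from OR2C1 on chromosome 16 (3364725 to 3365310, 0.81), in the authors' deposited table.

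Genes with at least 4 regions, a rule set after the values were seen, differed within an end. At 19p the 5 regions inside SBNO2 lay at a median of -0.40, the 5 assigned to MIDN at -0.22 and the 4 assigned to NFIC, a nuclear factor I gene, at 0.51, in the authors' deposited table. Of these, 3 MIDN regions and 1 NFIC region lay outside the gene, up to 2873 and 15117 bp away. At 16p the 4 regions nearest to or in KCTD5 ran from 0.38 to 0.67 in the authors' deposited table, and 3 of them lay 8656 to 21403 bp outside it. The 6 assigned to ZNF213 ran from -0.23 to 0.0068, and 5 of them lay 5338 to 15585 bp outside it, in the authors' deposited table. Most were weak regions, with single standard errors up to 1.17 at KCTD5.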
